A study of Arabidopsis thaliana with 48 samples.

Results

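BAS1, CYP72C1 and BEN1 are 3 Arabidopsis thaliana genes whose products inactivate brassinosteroids, the steroid hormones of plants. They were taken by locus code (AT2G26710, AT1G17060 and AT2G45400) from a table of 33715 gene entries. Each code matched 1 entry, and all 3 passed the filter on low counts with 20995 genes in all. BAS1 lies on the forward strand of chromosome 2 (11380492 to 11383612, TAIR10), CYP72C1 on the reverse strand of chromosome 1 (5832097 to 5835456) and BEN1 on the reverse strand of chromosome 2 (18703829 to 18706266), and each count is for the whole gene. No other entry of the table overlapped any of them, and the nearest lay 79 bases from BEN1.

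Brassinosteroids bind the receptor BRI1 at the cell surface, which activates the transcription factors BZR1 and BES1. Plants hold hormone levels steady by feedback: these factors repress genes of hormone synthesis, while genes of inactivation are known to be induced by the hormone. BAS1 is a cytochrome P450 that hydroxylates brassinolide and castasterone on their side chain, and CYP72C1, also known as SOB7, is a related P450. BEN1 resembles dihydroflavonol reductases and lowers brassinosteroid levels when overexpressed.

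The mRNA came from immunopurified polysomes, so a library reads ribosome-held mRNA of those cells whose promoter drove the FLAG tag. Roots of 6-day-old seedlings had 0, 3 or 8 h of 100 nM brassinolide (BL), the most active brassinosteroid. In Col-0 plants the tag was driven by 35S (whole root), pBRN2 (root cap), pGL2 (non-hair epidermis), pSCR (endodermis) or pSHR (stele). In the receptor mutant bri1-116 it was driven by pGL2 or pSCR, with BRI1 returned from a transgene named in parentheses, which gave pGL2(pGL2BRI1), pSCR(pSCRBRI1) and a line labelled pGL2(pSCRBRI1). With 3 times each, the 8 lines made 24 groups of 2 libraries, described by the submitters as biological repetitions. All plants carried a tag transgene, and each line is meant to read the cells its promoter marks. Mock-treated libraries of the later times are not analysed here, so BL cannot be told apart from elapsed time and handling. Fewer tagged cells that hold an mRNA and less of it per cell cannot be told apart either.

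The 250 bases before the RefSeq start of each gene (TAIR10.1) are shown as a description. All the genes stood high in pBRN2 and pGL2 and low in pSCR and pSHR. Any part of these bases in that pattern was not tested. Capitals mark matches to the motifs searched on both strands, which in these windows were the E-box (CANNTG) and the auxin response element (TGTCTC, here as GAGACA).

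BAS1 (chr2:11380213-11380462, forward strand): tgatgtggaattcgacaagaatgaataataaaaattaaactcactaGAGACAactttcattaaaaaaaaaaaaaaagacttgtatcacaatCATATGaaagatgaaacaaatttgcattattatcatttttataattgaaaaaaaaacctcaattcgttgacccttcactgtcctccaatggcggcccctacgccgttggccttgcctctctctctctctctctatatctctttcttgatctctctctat

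CYP72C1 (chr1:5835489-5835738, reverse strand): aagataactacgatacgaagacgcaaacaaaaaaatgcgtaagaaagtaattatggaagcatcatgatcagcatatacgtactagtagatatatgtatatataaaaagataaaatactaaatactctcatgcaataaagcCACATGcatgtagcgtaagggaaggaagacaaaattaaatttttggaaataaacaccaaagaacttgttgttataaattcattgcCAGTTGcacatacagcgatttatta

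BEN1 (chr2:18706402-18706651, reverse strand): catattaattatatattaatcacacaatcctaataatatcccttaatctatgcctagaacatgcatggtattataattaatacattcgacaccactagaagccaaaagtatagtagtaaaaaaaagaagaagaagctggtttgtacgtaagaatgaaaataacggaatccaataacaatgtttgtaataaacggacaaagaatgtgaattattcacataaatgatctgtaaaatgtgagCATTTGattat

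The 3 windows held 33.6, 30.4 and 28 percent G and C. Counted from the gene start, E-box letters, which bHLH factors bind, began at -159 in BAS1, at -110 and -25 in CYP72C1 and at -11 in BEN1. They occurred in 55.3 percent of such windows of 27443 genes. The TGTCTC letters, at -204 in BAS1, occurred in 10.9 percent. The G-box (CACGTG, a form of the E-box) and the brassinosteroid response elements CGTGTG and CGTGCG were found in none of the 3 genes even in 1000 bases, where 14.8, 17.2 and 5.09 percent of genes hold them.

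BAS1 alone of the 3 held an evening element (AAAATATCT) and a CCA1-binding site (AAAAATCT) in 1000 bases. These are letters bound by clock factors, and 7.24 and 21.1 percent of genes hold them. They are shown with 25 bases on each side, the match in capitals, and began at -480 and -784.

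BAS1 evening element (chr2:11379958-11380016, forward strand): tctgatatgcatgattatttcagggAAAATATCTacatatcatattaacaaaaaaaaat

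BAS1 CCA1-binding site (chr2:11379654-11379711, forward strand): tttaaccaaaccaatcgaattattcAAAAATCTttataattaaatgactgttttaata

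The tissues were checked with marker genes, which were chosen with earlier results of these data known. Total counts ran from 20556381 to 37685541 per library. Among the 5 Col-0 lines at 0 h, all 4 root cap markers were highest in pBRN2 (BRN2 at 459 CPM, read counts scaled to library size) and all 7 tested endodermis markers in pSCR (SCR at 241 CPM). Of the 5 epidermis markers 4 were highest in pGL2 (GL2 at 75.9 CPM), and WER was higher in pBRN2 (72.6 CPM) than in pGL2 (51.1). Of the 8 stele markers 6 were highest in pSHR (SHR at 102 CPM), while APL was highest in 35S (23.0 against 19.9 CPM in pSHR) and WOL in pGL2 (42.5 against 19.3). In pBRN2 at 0 h the stele markers stood at a median of 5.99 and 10.7 percent of the pSHR level. Root hair markers stood at 87.3 and 121 percent of the 35S level in pBRN2 and at 30.7 and 49.4 percent in pGL2. Libraries labelled pGL2(pSCRBRI1) went against their label: their 7 tested endodermis markers stood at a median of 72.4 to 110 percent of the pSCR level, and their 5 epidermis markers at 2.12 to 3.23 percent of the pGL2 level. In pGL2(pGL2BRI1) the endodermis markers stood at 13.5 to 33 percent of the pSCR level in 3 libraries (replicate 2 at 0 h, replicate 1 at 3 h and replicate 2 at 8 h) and at 1.46 to 2.54 percent in the other 3. The 3 libraries at 13.5 to 33 percent lack a remark that 21 libraries carry. It tells of reads 51 bases long that were trimmed by 1 base (the read note).

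Before BL, all 3 genes were high in the outer tissues and low in the inner ones. BAS1 stood at 72.8 and 61.4 CPM in the 2 pBRN2 libraries, 34.8 and 42.3 in pGL2, 15.5 and 13.3 in 35S, 4 and 4.06 in pSHR and 2.23 and 2.43 in pSCR. No library of one line overlapped those of another. How many of all genes part the lines in this way was not counted. CYP72C1 stood at 180 and 136 CPM in pBRN2, 106 and 120 in pGL2, 35 and 38.2 in 35S, 12.1 and 8.22 in pSCR and 1.77 and 2.19 in pSHR. BEN1 stood at 307 and 286 CPM in pBRN2, 131 and 138 in pGL2, 76.2 and 69 in 35S, 6 and 4.86 in pSCR and 3.23 and 4.74 in pSHR. So by mean level the root cap was highest and the epidermis next for each gene. Lowest in mean level was pSCR for BAS1 and pSHR for the other 2. For each gene a pair of neighbours in this order did not pass the test given below.

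A gene is said to have risen, fallen or been higher or lower only where it passed edgeR's quasi-likelihood test at a Benjamini-Hochberg adjusted p under 0.05 over all genes. Values after ± are SD of 2 libraries for levels and SE for log2 changes. Against 35S, BAS1 was 2.22 ± 0.30 higher in pBRN2 (adjusted p = 9.08e-07) on the log2 scale, CYP72C1 2.11 ± 0.24 higher and BEN1 2.03 ± 0.28 higher, in a comparison where 18.1 percent of all genes were higher. In pGL2 the log2 differences were 1.42 ± 0.29 for BAS1, 1.63 ± 0.24 for CYP72C1 and 0.89 ± 0.27 for BEN1, all higher, as were 23 percent of all genes. Without replicate 2 of 35S at 0 h, the BEN1 difference was 0.81 and did not pass (adjusted p = 0.0678). The median of all genes was -0.14 in the first comparison and -0.12 in the second.

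The inner tissues lay below the whole root for each gene. In pSCR the log2 differences from 35S were -2.63 ± 0.32 for BAS1, -1.85 ± 0.25 for CYP72C1 and -3.74 ± 0.30 for BEN1, in a comparison where 22 percent of all genes were lower. In pSHR they were -1.83 ± 0.30, -4.21 ± 0.28 and -4.19 ± 0.31, where 18.9 percent were lower. From the root cap to the stele the level of CYP72C1 fell by 6.32 ± 0.30 on the log2 scale (79.8-fold), and that of BEN1 fell by 6.22 ± 0.34 (74.4-fold), where 58 percent of genes differed. BAS1 was 28.8-fold lower in pSCR than in pBRN2, its widest gap. The root cap markers stood at 0.215 to 0.431 percent of the pBRN2 level in pSCR and at 0.192 to 0.375 percent in pSHR, and the epidermis markers at 2.19 to 4.57 and 0.716 to 3.95 percent of the pGL2 level. The part of such RNA in the low levels of the 3 genes was not tested.

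Of the 10 pairs of Col-0 lines, 9 passed for each gene, and the pair that did not pass was always a pair of neighbours in the order. For BAS1 it was pSHR against pSCR, with a log2 difference of 0.79 ± 0.32 (95% interval 0.16 to 1.43, adjusted p = 0.0513). For CYP72C1 it was pGL2 against pBRN2, at -0.48 ± 0.23 (-0.94 to -0.03, adjusted p = 0.0864). For BEN1 it was pSHR against pSCR, at -0.45 ± 0.29 (-1.01 to 0.12, adjusted p = 0.226). With the read note as a term in the fit, the first passed at 1.03 (adjusted p = 0.0165) and the second at -0.58 (adjusted p = 0.0372). Of all genes, 39.3 percent differed between pSHR and pSCR and 48.7 percent between pGL2 and pBRN2.

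The root cap and the epidermis differed for BAS1 (-0.80 ± 0.28 in pGL2 against pBRN2, adjusted p = 0.0203) and for BEN1 (-1.14 ± 0.27). The BAS1 difference did not pass without replicate 1 of pBRN2 at 0 h (-0.67, adjusted p = 0.115) or without replicate 1 of pGL2 at 0 h (-0.66, adjusted p = 0.145). Between the inner lines CYP72C1 was lower in pSHR than in pSCR, by -2.36 ± 0.26 (5.13-fold, adjusted p = 1.29e-08). The other 4 pairs without 35S set an outer line against an inner one. The share of all genes that differed was 54.4 percent for pSCR and 58 percent for pSHR against pBRN2, and 45.9 and 63.4 percent against pGL2.

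The 3 genes did not keep one ratio across tissues. Per kilobase of RefSeq exon (2208, 1980 and 1753 bases for BAS1, CYP72C1 and BEN1), the ratio of CYP72C1 to BAS1 in the 6 libraries of a line ran from 3.78 to 6.89 in pSCR and from 0.473 to 0.640 in pSHR. The ranges of these lines did not overlap, with CYP72C1 the higher gene per kilobase in every pSCR library and the lower in every pSHR library. In 35S, pBRN2 and pGL2 together the ratio ran from 1.56 to 3.40. BEN1 to CYP72C1 in pSHR ran from 1.54 to 2.45, inside the range of 1.10 to 3.75 of those 3 lines. In pSCR that ratio ran from 0.404 to 0.667, and the endodermis held less BEN1 than CYP72C1 in every library. BEN1 to BAS1 ran from 3.88 to 7.99 in 35S and from 0.729 to 1.47 in pSHR. The ratios are within a library and were not tested.

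**Figure D1:**
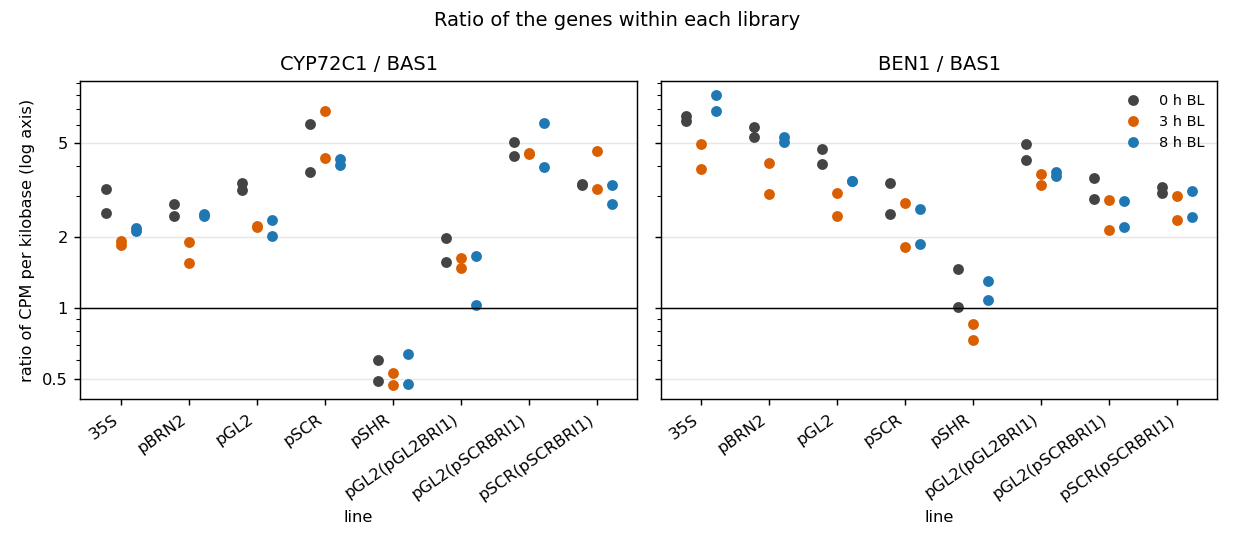
Ratio of CYP72C1 to BAS1 (left) and of BEN1 to BAS1 (right), each in CPM per kilobase of exon (log axis), for each library (point) by line and hours of BL, with a line at 1. The 6 pSHR libraries lie lowest in both panels, at 0.473 to 0.640 on the left and 0.729 to 1.47 on the right.

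After BL the level of BAS1 stood above 0 h in every line, but in no single line did the change pass. In pGL2 the libraries went from 34.8 and 42.3 CPM at 0 h to 75.5 and 86.2 at 3 h and 64 and 71.6 at 8 h. In pBRN2 they went from 72.8 and 61.4 to 151 and 92.7 and then 119 and 73.2, and in 35S from 15.5 and 13.3 to 19.6 and 29.8 and then 19.4 and 14.9. In pSHR they went from 4 and 4.06 to 6.96 and 9.32 and then 5.99 and 6.9. In these 4 lines the 3 h libraries did not overlap those of 0 h. In pSCR they did, going from 2.23 and 2.43 to 3.57 and 2.02 and then 3 and 3.37.

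Markers of the tissues moved in some of the same libraries. In pGL2 the median of the 5 epidermis markers went from 90.3 and 110 percent of their 0 h mean to 157 and 159.5 percent at 3 h and to 156 and 180.2 percent at 8 h, and their sum from 163 and 237 CPM to between 350 and 411 CPM. At 3 h 3 of the 5, and at 8 h 4 of the 5, lay above both 0 h libraries in both, 1 lay below them, and 1 passed as higher, at 8 h. Of all genes in pGL2, 23.5 percent at 3 h and 22.2 percent at 8 h lay above both in both, and 1.84 percent passed as higher at 8 h. In pGL2(pGL2BRI1), at each time, the library with the higher median of these markers was also the one with the higher BAS1 level. In replicate 2 of 35S at 8 h, where BAS1 was at 14.9 and CYP72C1 at 28.4 CPM, the root cap and epidermis markers stood at 5.38 and 8.75 percent of their own lines' level, against 10.35 and 10.54 percent and 21.3 and 22.4 percent in the 35S libraries of 0 h. Without that library the 35S changes at 8 h were 0.45 for BAS1 and 0.0855 for CYP72C1, against 0.25 and -0.13 with it. BEN1 in the same library was at 94.4 CPM, against 76.2 and 69 at 0 h. In replicate 1 of 35S at 3 h the root cap and epidermis markers stood at 8.3 and 11.7 percent. There BAS1 was at 19.65 CPM (15.5 and 13.3 at 0 h), CYP72C1 at 33.9 (35 and 38.2) and BEN1 at 77.2. In pBRN2 the root cap markers stood at 88 and 112 percent at 0 h, 76 and 118 at 3 h and 67.9 and 114 at 8 h, around the 0 h level at both times. In pSHR at 3 h the epidermis markers stood at 3.95 percent of the pGL2 level in replicate 2 and 0.909 in replicate 1. They stood at 1.25 and 0.716 percent at 0 h and at 1.82 and 1.5 at 8 h. Root cap markers in these 3 h replicates stood at 0.33 and 0.34 percent of the pBRN2 level, against 0.33 and 0.37 at 0 h. At 3 h BAS1, CYP72C1 and BEN1 stood at 9.32, 4.45 and 6.32 CPM in replicate 2. In replicate 1 they stood at 6.96, 2.96 and 4.03. The part of these marker levels in the changes of the 3 genes was not tested.

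The log2 change of BAS1 at 3 h was 1.07 ± 0.28 for pGL2, 1.01 ± 0.30 in pSHR, 0.86 ± 0.28 in pBRN2, 0.78 ± 0.29 in 35S and 0.26 ± 0.33 in pSCR. The adjusted p was lowest in pGL2, at 0.0638, where 0.981 percent of all genes changed. That change passed with the read note as a term (1.07, adjusted p = 0.0438), by DESeq2 (1.11, adjusted p = 0.0352) and with only the compared groups in the fit (1.06, adjusted p = 0.00396). Of all genes, 0.31 percent changed in 35S, 0.915 in pBRN2, 0.0429 in pSCR and 0.0191 in pSHR at 3 h. At 8 h the BAS1 changes were 0.81 ± 0.28 in pGL2, where 3.87 percent of genes changed, 0.68 ± 0.30 in pSHR (0.0191 percent), 0.52 ± 0.28 in pBRN2 (1.12 percent), 0.45 ± 0.33 in pSCR (0.0667 percent) and 0.25 ± 0.29 in 35S (0.429 percent). With only the compared groups in the fit the pGL2 change at 8 h was 0.85 and passed (adjusted p = 0.0424). The log2 difference of 8 h from 3 h for BAS1 was below 0 in 4 lines, between -0.53 and -0.26 in 35S, pBRN2, pGL2 and pSHR, and above 0 in the other 4, between 0.02 in pGL2(pGL2BRI1) and 0.19 in pSCR. None passed, in comparisons where 0.0381, 1.17, 0.643 and 0 percent of all genes did in the first 4 lines, 0 percent in pSCR and pSCR(pSCRBRI1), 0.229 percent in pGL2(pGL2BRI1) and 0.0238 percent in the line labelled pGL2(pSCRBRI1).

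CYP72C1 stood above 0 h at 3 h in all 8 lines and at 8 h in 7, again with none passing. Its largest log2 changes were in pSHR, at 0.91 ± 0.26 at 3 h (adjusted p = 0.532) and 0.69 ± 0.26 at 8 h. The pSHR libraries went from 1.77 and 2.19 CPM to 2.96 and 4.45 and then 3.44 and 2.96, with no overlap between 0 h and either later time. In pSHR both libraries lay above both of 0 h for 22.9 percent of all genes at 3 h and 23.5 percent at 8 h. In pGL2 the CYP72C1 libraries went from 106 and 120 to 149 and 173 and then 136 and 130, a log2 change of 0.51 ± 0.23 at 3 h. In pBRN2 they went from 180 and 136 to 211 and 159 and then 267 and 161, which overlap, with replicate 1 the higher at each time, and the log2 changes were 0.23 ± 0.23 and 0.44 ± 0.23. In 35S, 33.9 and 49.5 CPM at 3 h and 38.3 and 28.4 at 8 h overlapped the 35 and 38.2 of 0 h.

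BEN1 stood above 0 h in 6 of 8 lines at 3 h and in all 8 at 8 h. In 35S its libraries went from 76.2 and 69 CPM to 77.2 and 91.8 and then 106 and 94.4, a log2 change of 0.47 ± 0.27 at 8 h (adjusted p = 0.543). In pBRN2 they went from 307 and 286 to 366 and 303 and then 500 and 294, which overlap, again with replicate 1 the higher at each time. In pSHR they went from 3.23 and 4.74 to 4.03 and 6.32 and then 6.2 and 5.9, and the 8 h change of 0.60 ± 0.28 was the largest of the 5 Col-0 lines. In pSCR they stayed between 4.46 and 6.29 at all times.

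Over the 8 lines and both times, edgeR passed 0 of 16 changes for each gene. At an unadjusted p under 0.05 there were 5 at 3 h and 3 at 8 h for BAS1, 3 and 2 for CYP72C1 and 0 and 2 for BEN1, and DESeq2 passed the BAS1 change in pGL2 at 3 h. The 5 for BAS1 at 3 h were in 35S and pBRN2, where 12.7 percent of all genes had such a p, in pGL2 (9.88 percent), in pSHR (5 percent) and in pGL2(pGL2BRI1) (15.1 percent), and the 3 for CYP72C1 were in the last 3 of these. Those at 8 h were in pGL2 (17 percent, BAS1), pSHR (3.33 percent, all 3 genes), pGL2(pGL2BRI1) (11.8 percent, BAS1 and BEN1) and the line labelled pGL2(pSCRBRI1) (5.28 percent, CYP72C1). Both BAS1 libraries of 3 h lay above both of 0 h in 7 of 8 lines. The same held for 25.5 percent of all genes in 35S, 17.7 in pBRN2, 23.5 in pGL2, 22.9 in pSHR, 22.2 in pGL2(pGL2BRI1), 20.2 in the line labelled pGL2(pSCRBRI1) and 15.3 in pSCR(pSCRBRI1), and for 14.7 percent in pSCR, the line where BAS1 overlapped.

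Changes were then averaged over lines in the same fit, a comparison chosen after it was seen that no single line passed. Over the 5 Col-0 lines BAS1 rose by 0.80 ± 0.13 at 3 h (1.74-fold, adjusted p = 0.000198), and CYP72C1 rose by 0.44 ± 0.11 (1.36-fold, adjusted p = 0.00717), where 11.6 percent of all genes changed and 5.14 percent rose. BEN1 was at 0.20 ± 0.12 (95% interval -0.04 to 0.44, adjusted p = 0.321). At 8 h BAS1 rose by 0.54 ± 0.13 (adjusted p = 0.00885) and BEN1 by 0.40 ± 0.12 (adjusted p = 0.0336), where 9.63 percent changed and 4.45 percent rose, while CYP72C1 was at 0.29 ± 0.11 (0.08 to 0.51, adjusted p = 0.0800). The median of all genes was 0.03 at 3 h and 0.02 at 8 h.

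The 8 h calls of BEN1 and CYP72C1, near the threshold, changed when any 1 of several libraries was left out. The BEN1 mean did not pass in 11 of the 20 fits that left out 1 library, with log2 values from 0.32 to 0.41 in those fits. They were the fits without replicate 2 of 35S (0.40), pBRN2 (0.39), pGL2 (0.41) or pSCR (0.38) at 0 h, without replicate 1 of pGL2 (0.40) or pSHR (0.36) at 0 h, without replicate 1 of 35S (0.39), pBRN2 (0.32), pSCR (0.37) or pSHR (0.41) at 8 h, and without replicate 2 of pGL2 at 8 h (0.39). The CYP72C1 mean passed without replicate 2 of 35S at 8 h (0.34), replicate 2 of pBRN2 at 8 h (0.36) or replicate 1 of pSCR at 0 h (0.37). The BAS1 means passed in every one of these fits. With a term for the replicate number within the 4 lines whose same-numbered libraries deviated together (a replicate block chosen after seeing the data), the CYP72C1 mean at 8 h passed at 0.29 (adjusted p = 0.0256) and the other means of the 5 lines kept their calls.

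Over all 8 lines BAS1 rose by 0.69 ± 0.11 at 3 h (adjusted p = 3.43e-05) and CYP72C1 by 0.46 ± 0.08 (adjusted p = 0.000236), where 22.2 percent of genes changed, and BEN1 was at 0.19 ± 0.10 (adjusted p = 0.181). At 8 h BAS1 rose by 0.57 ± 0.11, CYP72C1 by 0.35 ± 0.08 and BEN1 by 0.37 ± 0.10 (adjusted p = 0.00043, 0.0057 and 0.00909), where 15 percent changed. Without the 3 pGL2(pGL2BRI1) libraries with endodermis markers the 3 h values were 0.69, 0.47 and 0.18 and the 8 h values 0.59, 0.34 and 0.37, and each kept its call.

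**Figure D2:**
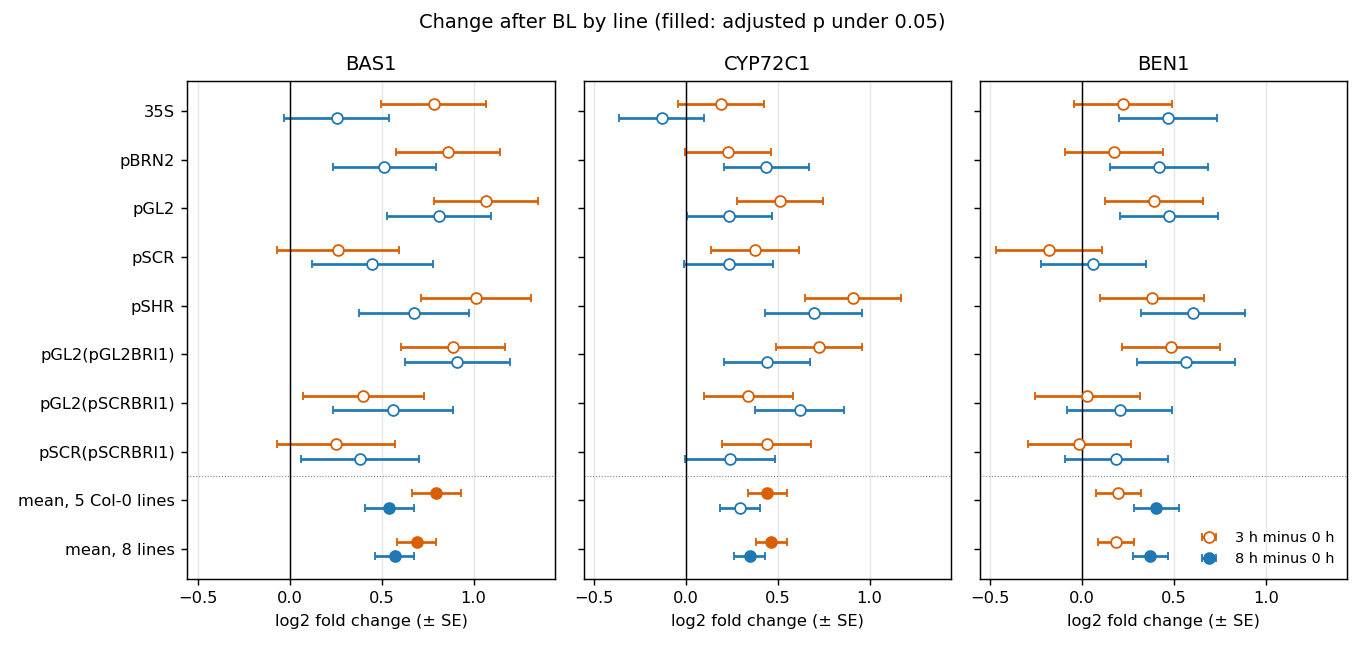
Log2 fold change after BL (horizontal axis, ± SE) of the 3 genes in each of the 8 lines and as means over lines (rows), at 3 h and 8 h against 0 h, with filled points where the adjusted p was under 0.05. The filled points are all means over lines, and every BAS1 point lies above 0, from 0.25 to 1.07 in the single lines.

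The changes after BL were compared between lines by the contrast of the fold changes. Of 14 such contrasts, edgeR and DESeq2 each passed 0 for each gene. In 8 of the 14 edgeR called 0 percent of all genes. The other shares were 0.0143 percent for pBRN2 and for pGL2 against 35S at 8 h, 0.00953 and 0.0572 percent for pGL2 against pSCR at 3 h and 8 h, and 0.0286 and 0.00953 percent for pGL2(pGL2BRI1) against pGL2. At an unadjusted p under 0.05 there were 0 for BAS1, 2 for CYP72C1 and 0 for BEN1. The 2 set pSHR against 35S, where CYP72C1 changed by 0.72 ± 0.35 more at 3 h and by 0.83 ± 0.35 more at 8 h on the log2 scale (95% interval at 8 h 0.14 to 1.52, adjusted p = 1). An unadjusted p under 0.05 was held by 1.59 percent of all genes in the 3 h contrast and 3.57 percent in the 8 h contrast. Over the 14 contrasts that share ran from 1.59 to 8.25 percent. The widest BAS1 contrast was pGL2 against pSCR at 3 h, at 0.81 ± 0.44 (-0.05 to 1.66, adjusted p = 1).

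Lines with BRI1 returned to 1 tissue were set against pGL2 or pSCR of Col-0, and none of the 3 genes passed in pGL2(pGL2BRI1) or pSCR(pSCRBRI1). At 0 h BAS1 stood at 58.9 and 38.5 CPM in pGL2(pGL2BRI1), around the 34.8 and 42.3 of pGL2, and at 2.75 and 2.66 in pSCR(pSCRBRI1), just above the 2.23 and 2.43 of pSCR. CYP72C1 stood at 82.7 and 68.6 in the first, below both pGL2 libraries, and at 8.31 and 7.94 in the second. BEN1 stood at 232 and 130 in the first and at 6.72 and 6.93 in the second.

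Against pGL2, the log2 differences in pGL2(pGL2BRI1) were 0.34 ± 0.28 for BAS1 (95% interval -0.22 to 0.89), -0.58 ± 0.23 for CYP72C1 (-1.04 to -0.12, adjusted p = 0.107) and 0.43 ± 0.27 for BEN1 (-0.09 to 0.96), none of which passed in a comparison where 11.4 percent of genes did. Without the 3 libraries with endodermis markers they were 0.61, -0.45 and 0.79 (adjusted p = 0.246, 0.401 and 0.0672), so the BAS1 and BEN1 differences were larger and still did not pass. Without replicate 1 of pGL2(pGL2BRI1) at 0 h, the library with few endodermis markers, they lay near 0 for BAS1 and BEN1 (0.00 and -0.04). Against pSCR, those in pSCR(pSCRBRI1) were 0.22 ± 0.33 (-0.43 to 0.87), -0.32 ± 0.24 (-0.80 to 0.16) and 0.33 ± 0.29 (-0.23 to 0.89), where 2.99 percent of genes passed.

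The libraries labelled pGL2(pSCRBRI1) had the low levels of the endodermis. At 0 h BAS1 stood at 1.94 and 1.83 CPM, CYP72C1 at 7.75 and 8.34 and BEN1 at 4.5 and 5.16. Against pGL2 all 3 were lower, by -4.35 ± 0.34, -3.81 ± 0.26 and -4.80 ± 0.32, as were 25.1 percent of all genes. Against pSCR they differed by -0.30 ± 0.34, -0.34 ± 0.24 and -0.17 ± 0.29, with intervals from -0.97 at the lowest to 0.39 at the highest, and none passed where 0.972 percent of genes did. Since the endodermis markers of these libraries also go against the label, the contrast with pGL2 cannot be told apart from a change of tissue.

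After BL, BAS1 in pGL2(pGL2BRI1) went to 74.3 and 106 CPM at 3 h and 120 and 63.4 at 8 h, log2 changes of 0.89 ± 0.28 and 0.91 ± 0.28 (adjusted p = 0.0933 and 0.117), where 2.72 and 1.39 percent of genes changed. The 8 h change passed without replicate 2 of 8 h, one of the 3 libraries with endodermis markers (1.30, adjusted p = 0.0202). Without all 3 the changes were 0.85 and 1.03 and did not pass. Within libraries that carry the read note BAS1 went from 58.9 to 106 and 120 CPM, and within those that lack it from 38.5 to 74.3 and 63.4. In pGL2, where the note also splits each pair, it went from 42.3 to 86.2 and 64 with the note and from 34.8 to 75.5 and 71.6 without it. BAS1 stood above 0 h on both sides of the note in both epidermal lines, each value being that of a single library. In pGL2(pGL2BRI1) the libraries that lack the note are those with endodermis markers. There the note and the markers cannot be told apart.

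In pSCR(pSCRBRI1) BAS1 went to 2.78 and 3.67 CPM and then 3.41 and 3.64, changes of 0.25 ± 0.32 and 0.38 ± 0.32, where 0 percent of genes changed. In the libraries labelled pGL2(pSCRBRI1) it went to 2.28 and 2.73 and then 3.08 and 2.51, changes of 0.40 ± 0.33 and 0.56 ± 0.33, where 0.224 and 0.11 percent changed. CYP72C1 in pGL2(pGL2BRI1) went to 109 and 141 CPM and then 111 and 94.3, a change of 0.72 ± 0.23 at 3 h (adjusted p = 0.0996), with no overlap with 0 h at either time. There both libraries lay above both of 0 h for 22.2 percent of all genes at 3 h and 17.8 percent at 8 h. BEN1 in the same line, at 196 and 311 and then 345 and 191, overlapped its 0 h values.

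The genes most like each member were found by Pearson's r of log2(CPM + 1) over the 24 group means, among 13176 genes with a mean of at least 5 CPM. The group means share lines and libraries, so r is a description. Closest to BAS1 were WAG1, a kinase that acts on auxin carriers (r = 0.988), AT1G25400 (0.988), the sugar carrier gene STP1 (0.987), AT2G24400, also named SAUR38 (0.985), and AT2G27389 (0.980). STP1 stood at 712 CPM in pBRN2 and 10.3 in pSCR at 0 h. Closest to CYP72C1 were AT5G44380 (0.993), the nucleotide sugar carrier gene UTR2 (0.985), RBL7 (0.981), AT4G00955 (0.981) and CML43 (0.979). AT5G44380 stood at 1163 CPM in pBRN2, 69.6 in pSCR and 13 in pSHR.

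Closest to BEN1 were ANL2, a homeodomain factor gene (0.994), LBD13 (0.993), MAP18, a gene for a microtubule-associated protein (0.993), AT4G24310 (0.992) and AT2G17280 (0.992). MAP18 stood at 1133 CPM in pBRN2, 312 in pGL2 and 6.24 in pSHR. Among themselves the 3 members had an r of 0.969 (BAS1 and BEN1), 0.954 (CYP72C1 and BEN1) and 0.913 (BAS1 and CYP72C1). CYP72C1 was therefore 466th in likeness to BAS1, and BEN1 42nd. Over the 21 groups without the labelled pGL2(pSCRBRI1) line the first 4 genes for BAS1 came in the same order and the fifth was 9th, the 5 for CYP72C1 were at ranks 1, 4, 7, 2 and 9, and those for BEN1 at 1, 3, 2, 5 and 4. With a pseudocount of 0.5 in place of 1, STP1 was at rank 1 and WAG1 at rank 3 for BAS1, and RBL7 at rank 9 for CYP72C1.

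Other genes with a role in brassinosteroid inactivation were read beside the 3. The list held the glucosyltransferase genes UGT73C5 and UGT73C6, the acyltransferase genes BIA1 and PIZ, and the sulfotransferase genes ST1 and ST4A. UGT73C6 was not tested, and UGT73C5 stood at no more than 0.157 CPM in any 0 h library of the Col-0 lines. Against 35S, 3 of the 5 tested were higher in pBRN2 and 1 was lower, with a median of 1.28 (1.42 without UGT73C5), where 18.1 percent of all genes were higher and 22.9 percent lower. BIA1 was at 33.3 ± 7.06 against 11.4 ± 1.39 CPM (log2 difference 1.55), and ST4A at 33.6 ± 4.54 against 6.91 ± 0.697 (2.28). PIZ, at 48 ± 2.91 against 146 ± 11.9 CPM, was lower by -1.61.

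In pGL2, 2 of the 5 were higher (BIA1, at 62.1 ± 9.18 CPM, and ST4A) and PIZ was lower, with a median of 0.87 (1.24 without UGT73C5), where 23 percent of all genes were higher and 25.9 percent lower. In pSCR 4 were lower, BIA1 by -2.20, ST1 by -2.73, PIZ by -3.18, and ST4A, which had 0 counts in 1 of its libraries, with a median of -3.18 (-2.96), where 22 percent of all genes were lower and 12.4 percent higher. In pSHR BIA1, ST1 and ST4A were lower and PIZ was higher, at 234 ± 15.8 CPM (log2 difference 0.68), with a median of -3.68 (-3.21), where 18.9 percent of all genes were lower and 7.73 percent higher. BIA1 and ST4A, like BAS1, CYP72C1 and BEN1, were thus higher in both outer lines and lower in both inner ones, and PIZ was not. ST1 was higher in pBRN2 (79.7 ± 19.4 against 32.75 ± 1.44 CPM in 35S) and lower in both inner lines. In pGL2 ST1 stood at 59.9 ± 5.66 CPM and did not pass. In the means over the 5 Col-0 lines after BL, edgeR passed 0 of the 5 at either time. Over all 8 lines 1 of the 5 was lower at 3 h, where 12 percent of all genes were lower, and 0 passed at 8 h.

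The late synthesis genes make the hormone that BAS1, CYP72C1 and BEN1 remove. Of the 7 genes, 5 were lower in pBRN2 than in 35S and 0 higher, with a median of -1.56 against -0.14 for all genes, of which 22.9 percent were lower. The other 2 were DWF4 at 0.14 and DET2 at -0.13. CPD, an early P450 of this branch, was at 99.9 ± 34.7 CPM in pSHR and 24.3 ± 2.09 in 35S, and at 5.59 ± 0.178 in pBRN2, 4.83 ± 0.769 in pSCR and 2.02 ± 0.383 in pGL2. In pGL2 5 were lower and 1, DET2, was higher at 1.28 (median -2.05), where 25.9 percent of all genes were lower and 23 percent higher, and ROT3 was at 0.12. In pSCR 3 were lower and 2 higher, among them BR6OX2, which makes brassinolide, at 52.5 ± 3.27 against 13.3 ± 1.70 CPM (median -0.06), where 22 percent of all genes were lower and 12.4 percent higher. In pSHR 1, CPD, was higher (median 0.69), as were 7.73 percent of all genes.

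After BL several synthesis genes fell, over the same libraries in which BAS1 and CYP72C1 rose. In the mean over the 5 Col-0 lines at 3 h, DWF4 fell by 1.35 ± 0.22, BR6OX2 fell by 1.46 ± 0.27, CYP90D1 fell by 1.09 ± 0.20 and CPD fell by 0.72 ± 0.13 on the log2 scale. These 4 of 7 were lower and 0 were higher, with a median of -0.72 against 0.03 for all genes, of which 6.51 percent were lower. At 8 h BR6OX2, DWF4, CPD and DET2 were lower, by -1.53, -0.76, -0.70 and -0.32, with a median of -0.48 against 0.02 for all genes, of which 5.17 percent were lower.

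**Figure D3:**
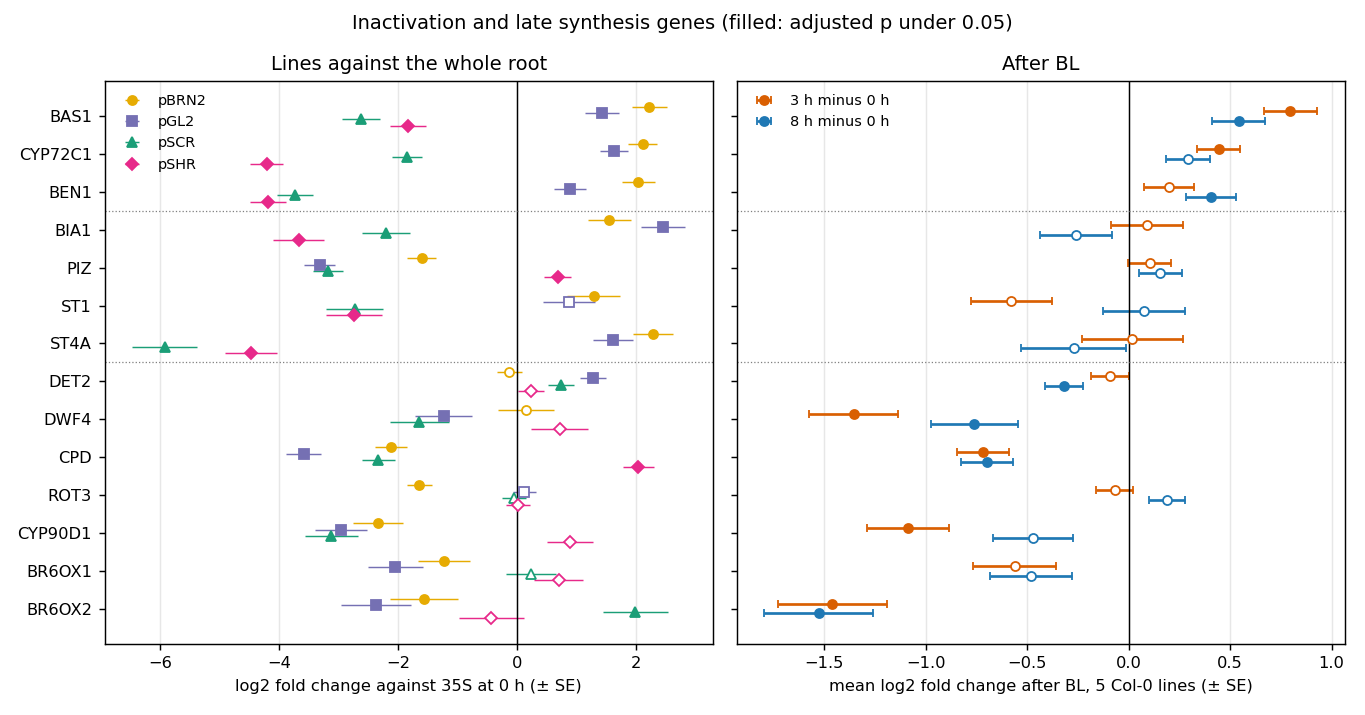
Log2 fold change (± SE) of the 3 members, 4 other inactivation genes and 7 late synthesis genes (rows, groups split by dotted lines), in the 4 Col-0 promoter lines against 35S at 0 h (left) and after BL as a mean over the 5 Col-0 lines (right), with filled symbols where the adjusted p was under 0.05. On the left BAS1, CYP72C1 and BEN1 lie right of 0 in pBRN2 and pGL2 and left of it in pSCR and pSHR; on the right they lie right of 0 while DWF4, CPD and BR6OX2 lie left of it.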

How the data were processed

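Polysome-bound mRNA of Arabidopsis roots was read in 48 libraries, made with an unstranded kit and sequenced as single-end reads, per the labels' protocols. The authors deposited whole-number read counts per gene on TAIR10, not normalized. FastQC 0.10.1, TopHat2 2.0.9 and HTSeq 0.5.3p3 are named in the submitters' processing notes, and an unstranded count cannot part a gene from an antisense partner. The table held 0 columns of other samples.

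Counts were filtered with filterByExpr, scaled with TMM and tested with the quasi-likelihood test of edgeR 4.0.16 (R 4.3.3, limma 3.58.1), fitted to all 48 libraries at once, each group with its own mean, with Benjamini-Hochberg adjustment over 20995 genes in each of 56 comparisons, 4 of them added after values were seen. Levels are CPM on the TMM library size, and a list gene or member counts as called at an adjusted p under 0.05. The p-values measure the spread between 2 libraries, pooled over all groups. The test was checked on simulated counts. Alternatives were RLE scaling, no filter, DESeq2 1.42.0, the compared groups alone, a term for the replicate number (over all lines, crossed, or within 4 lines) or for the read note, and leaving out libraries. Fits that left out 1 library kept the dispersion trend of all libraries. RefSeq (TAIR10.1) gave symbols, exon lengths and promoter windows; all 23488 loci found in both tables overlapped in position, and 11438 shared an end.

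The members, lists and markers were chosen with earlier results of these data known. The text names the 3 members, the 5 genes most like each, and at most 4 passing genes per pathway list and comparison. Motif windows are 250 and 1000 bases.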

Additional observations from a re-analysis of the deposited data

How the results depend on the processing

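BAS1 had 50 to 114 counts per library in pSCR, pSCR(pSCRBRI1) and the line labelled pGL2(pSCRBRI1), and every group had 2 libraries; which of these limits the calls was not tested. Of 105 values, all were recomputed under 6 alternatives, and 9, 36 and 15 of them under crossed pairing, the replicate block within lines and the fit without the 3 libraries. In these 690 fits 680 values kept direction and side of the threshold. With the read note as a term, CYP72C1 in pGL2 against pBRN2 (-0.58), BAS1 in pSHR against pSCR (1.03) and BAS1 in pGL2 at 3 h (1.07) passed. BAS1 in pGL2 at 3 h also passed by DESeq2 (1.11) and with the compared groups alone (1.06), as did BAS1 in pGL2 at 8 h with the compared groups alone (0.85). BEN1 in pSCR(pSCRBRI1) at 3 h, at -0.02, turned to 0.0072 under RLE scaling and under DESeq2 and to 0.021 without the filter. The cause was not tested.

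Leaving out 1 library ended, made or reversed a call or sign in 32 of 696 fits. The lowest and highest values, in fits that did so for at least 1 library, were 0.81 and 0.95 for BEN1 and -0.95 and -0.66 for BAS1 in pGL2 against 35S and pBRN2, -0.12 and 0.48 at 3 h and -0.37 and 0.0855 at 8 h for CYP72C1 in 35S, -0.0128 and 0.75 for BEN1 in pBRN2 at 8 h, and -0.23 and 0.62 for BAS1 in pSCR at 3 h. In pSCR at 8 h they were -0.0421 and 0.54 for CYP72C1 and -0.12 and 0.23 for BEN1. For BEN1 at 3 h they were -0.03 and 0.67 in pSHR, -0.0532 and 0.14 in the line labelled pGL2(pSCRBRI1) and -0.0434 and 0.0112 in pSCR(pSCRBRI1). In pGL2(pGL2BRI1) they were 0.38 and 1.30 for BAS1 at 8 h and, against pGL2 at 0 h, -0.0011 and 0.62 for BAS1 and -0.045 and 0.80 for BEN1. For the means over the 5 Col-0 lines at 8 h they were 0.21 and 0.37 for CYP72C1 and 0.32 and 0.47 for BEN1. The comparisons of 8 h with 3 h and the response contrasts passed 0 members under every alternative run.

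The labels do not say that replicate numbers pair the samples. Deviations of same-numbered samples correlated over 0.1 in 17 of 24 pairs of groups and under -0.1 in 6, from -0.828 to 0.822. All 3 pairs of times did so in 4 lines: pBRN2 (0.558 to 0.745), pSCR (0.708 to 0.817), pSCR(pSCRBRI1) (0.569 to 0.705) and the line labelled pGL2(pSCRBRI1) (0.504 to 0.646). In pBRN2 each of the 3 genes stood above 0 h within both numbers at both times. With a replicate block within those 4 lines, chosen after seeing the data, the CYP72C1 mean over the Col-0 lines at 8 h passed (0.29) and no single line did, BAS1 in pBRN2 at 3 h being at 0.82 (adjusted p = 0.0671), while the genes called there went from 192 to 918 and in the 5-line means from 2445 to 4407 at 3 h and from 2021 to 3825 at 8 h. With 1 replicate block over all lines every one of the 105 values kept its call, BAS1 rising by 0.80 over the 5 Col-0 lines at 3 h (adjusted p = 0.000236), and the count of genes called in pGL2 at 3 h went from 206 to 209. With crossed pairing, chosen after seeing the data, it went from 90 to 102 in 35S at 8 h, from 813 to 845 in pGL2 at 8 h and from 571 to 577 in pGL2(pGL2BRI1) at 3 h. Counts over all genes depended more on the test: in pGL2 at 3 h DESeq2 called 346 and the compared groups alone 951, and in 35S at 3 h edgeR called 65, DESeq2 209 and the compared groups alone 0.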
